A study of Medicago sativa with 3 samples.

Results

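Calcium sensors, the kinases that act with them, and the pumps and channels that move calcium were examined in the transcriptome of grazed and ungrazed alfalfa. The members were the 327 of 95646 assembled transcripts whose best protein match and best nucleotide match both came from a legume and whose protein annotation named calmodulin, a calmodulin-like protein, calcineurin, a calcium-dependent or CBL-interacting protein kinase, a calcium-binding or calcium-transporting protein, or a glutamate receptor. The rule itself used no measured level, but it was set with earlier results of these data known. By the wording of the annotation they fell into 9 role groups of 28 calcium pumps, 33 glutamate receptor channels, 35 calmodulin and calmodulin-like proteins, 20 calcineurin B-like (CBL) proteins, 65 calcium-dependent protein kinases (CDPK), 40 CBL-interacting protein kinases (CIPK), 5 calmodulin-dependent kinases, 60 calmodulin-binding proteins and 41 other calcium-binding proteins.

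Plant cells keep free calcium in the cytosol very low, and wounding, touch, cold, drought and pathogens each open channels that let it rise for a short time. Pumps and exchangers then remove it. The rise is read by proteins with EF-hand domains: calmodulins and calmodulin-like (CML) proteins, which act by binding other proteins, CBL proteins, which recruit CIPKs, and CDPKs, which carry the sensor and the kinase in 1 chain.

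RNA came from Medicago sativa ssp. falcata, cultivar 'Hulunbeier', a hardy yellow-flowered alfalfa. The tolerant population (MF200401) consisted of 10 plants scored as most vigorous after heavy sheep grazing, and the intolerant population (MF200402) of 10 plants scored as least vigorous, all multiplied as clonal pieces. The 3 libraries were tolerant ungrazed, tolerant grazed and intolerant grazed, 1 per condition, each from equal parts of leaf, stem and root RNA pooled over the 10 plants of a population. Grazed plants were dug up 1 week after the sheep left. The ungrazed plants grew inside a fence, in a block of their own, and were clipped to a like height when grazing ended, so grazing and the block cannot be told apart, and intolerant ungrazed plants were not part of the comparison.

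The unit was FPKM, uniquely aligned fragments scaled by the length of the transcript and the depth of the library, and levels of different transcripts were compared on that length-scaled unit alone. A transcript was called higher or lower where the log2 ratio of FPKM was at least 1 in size, a 2-fold difference, with 0.01 put in place of an FPKM of 0. Without replicates there was no test of the conditions. Log2 ratios of named transcripts are followed by exact Clopper-Pearson 95% intervals, which cover counting error only, PCR copies included. Identifiers omit the ending "_All" that each carries in the table. Contigs that share a CL number belong to 1 assembly cluster and share sequence, so uniquely aligned fragments can be split among them and the values of single contigs are uncertain. The grazing comparison (tolerant grazed against tolerant ungrazed) and the population comparison (intolerant grazed against tolerant grazed) share the tolerant grazed library, and a high or low value in that library moves both ratios in opposite directions.

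Throughout, 3 values in a row stand for tolerant ungrazed, tolerant grazed and intolerant grazed in that order. Depth was similar, at 22.8, 22.7 and 22.3 M aligned fragments, a floor of 3 fragments being worth 0.131 to 0.135 FPKM in a transcript of 1 kb. Legume-matched transcripts, 52669 in number, took 79.9, 80.4 and 88.8% of the fragments in that order. Their median log2 ratio was 0.12 in the grazing comparison and 0.28 in the population comparison. Markers of green tissue were present in each library and were not level: the summed FPKM of 12 chlorophyll a/b-binding transcripts was 2618, 4461 and 11250, and that of 10 RuBisCO small subunit transcripts 7419, 6419 and 13799. The highest single chlorophyll a/b-binding value was 1150, 2428 and 8332 FPKM, so that sum leaned on few transcripts. The 43 transcripts named nodulin, among them root nodule proteins, summed to 1896, 922 and 1035 FPKM, and no legume-matched transcript was named leghemoglobin. The nodulin sum leaned on few abundant transcripts, the highest single value being 855, 323 and 471 FPKM. By count the nodulins went the other way in the grazing comparison, with 14 higher, 3 lower and a median log2 ratio of 0.52. The part of tissue make-up in the ratios given here was not tested, and in bulk RNA fewer cells of a type and less RNA per cell cannot be told apart.

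All 327 members had fragments in at least 1 library of each comparison. Together they summed to 4551 FPKM in tolerant ungrazed, 4913 in tolerant grazed and 4144 in intolerant grazed plants, or 0.669, 0.733 and 0.601% of all fragments. The intolerant grazed library was thus the lowest for the summed machinery and the tolerant grazed library the highest.

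In the grazing comparison 34 members (10.4%) were higher and 32 (9.79%) lower in tolerant grazed plants. Among all transcripts 16.9% were higher and 24.4% lower, and among all legume-matched transcripts, the fitting background, 15.7% were higher and 8.78% lower. The members' share of higher transcripts thus lay under the background and their share of lower ones slightly above it. The study's joint rule, which adds a Poisson test at a false discovery rate of at most 0.001, kept 18 higher and 14 lower members, against 6.55 and 3.68% of legume-matched transcripts, and that test compares 2 libraries, not 2 conditions. Shares were smaller among longer transcripts. Of the 225 members of at least 500 bases, 18 (8%) were higher and 14 (6.22%) lower, beside 9.56 and 5.15% of legume-matched transcripts of that length.

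In the population comparison 56 members (17.1%) were higher and 39 (11.9%) lower in intolerant grazed plants, against 25.5 and 23.6% of all transcripts and 22.3 and 13.4% of legume-matched transcripts. The joint rule kept 32 higher (9.79%) and 27 lower (8.26%), against 13.3 and 7.99%. Of members of at least 500 bases 10.7% were higher and 12.0% lower, beside 15.5 and 9.66%. A shift of the whole library entered here: the median log2 ratio over the 48423 transcripts that reached 1 FPKM in each library was 0.24 for the population and 0.09 for the grazing comparison. Relative to that shift 41 members (12.5%) were higher and 64 (19.6%) lower in intolerant grazed plants, where 17.1 and 17.0% of legume-matched transcripts were, and 24 (7.34%) were higher and 36 (11.0%) lower in tolerant grazed plants, where 13.6 and 10.4% were. Direction of the members as a whole in the population comparison rested on this choice, the median log2 ratio being 0.11 before and -0.13 after rescaling.

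**Figure D1:**
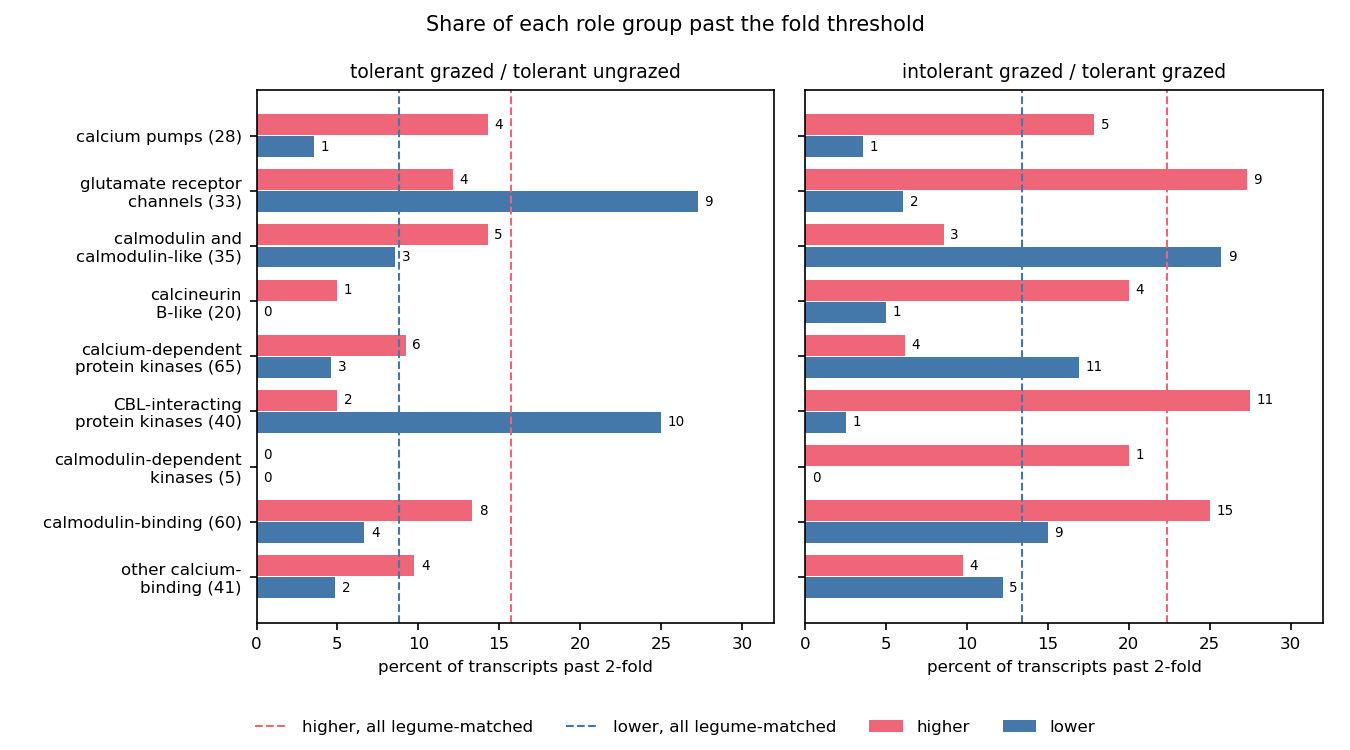
Bars give the percent of each role group (group size in brackets, number of transcripts beside each bar) that was at least 2-fold higher or lower, for the grazing comparison on the left and the population comparison on the right, and dashed lines give the same percents over all legume-matched transcripts. On the left the lower bars of CIPKs (10 of 40) and glutamate receptor channels (9 of 33) are the longest, on the right the higher bars of CIPKs (11 of 40), glutamate receptor channels (9 of 33) and calmodulin-binding proteins (15 of 60) are of like length, and the 2 panels share the tolerant grazed library.

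The role groups had different medians. In tolerant grazed against ungrazed plants the median log2 ratio was -0.48 in the CIPK group, the only group with a negative median among the 9, and it was -0.57 after rescaling. The other medians ran from 0.10 in glutamate receptor channels to 0.33 in both the CBL and the other calcium-binding groups. In the population comparison the medians ran from -0.16 in other calcium-binding proteins to 0.80 in calmodulin-dependent kinases. Beside the legume-matched median of 0.28, the calmodulin and CML group (-0.13), CDPKs (-0.07) and CBLs (-0.02) lay lower, and glutamate receptor channels (0.50) lay higher. The calmodulin and CML group holds some kinases by the wording of their annotation, and the median of the 27 transcripts without them was 0.01. The CIPK and calmodulin-binding medians (both 0.20) turned to -0.04 and -0.03 after rescaling.

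**Figure D2:**
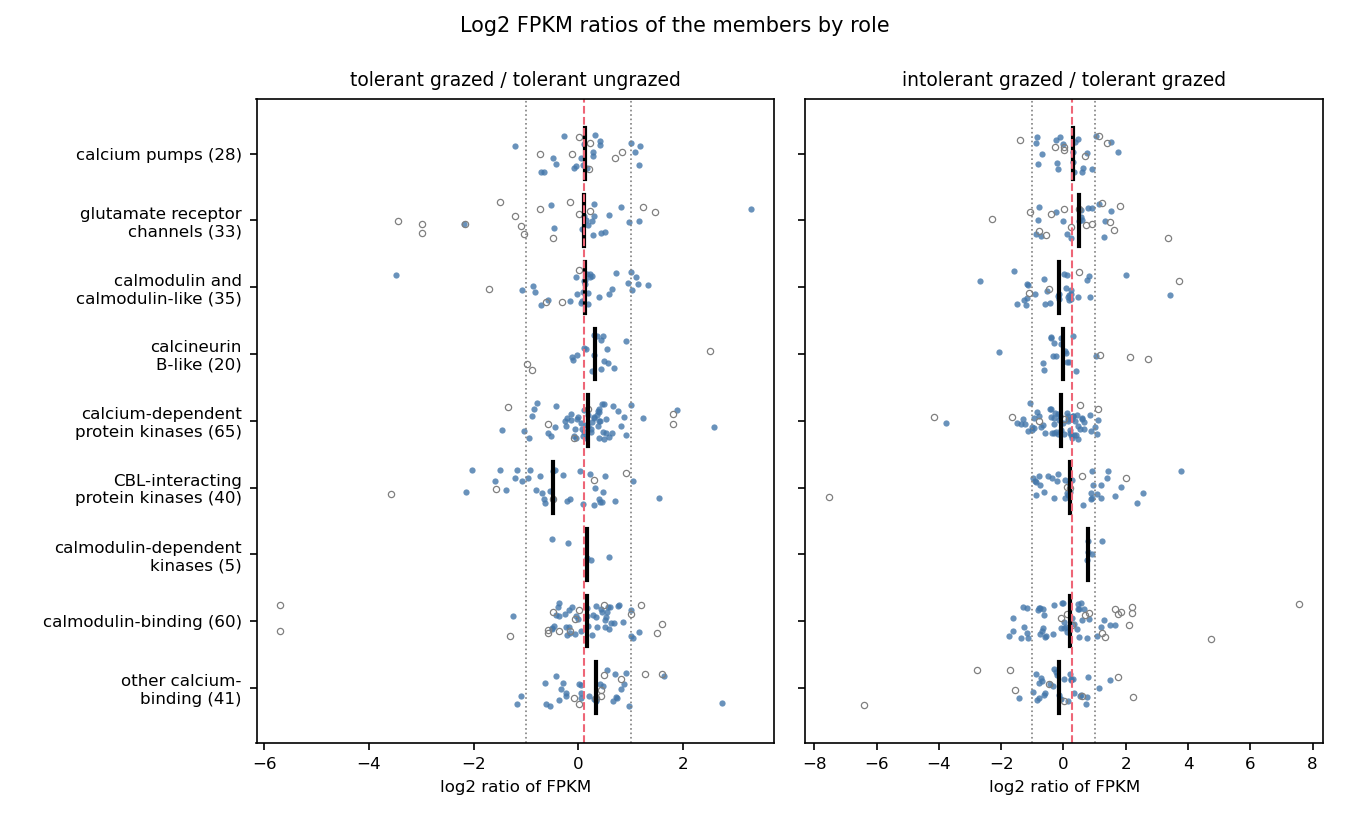
Points are the log2 FPKM ratios of all 327 members by role group, filled where a transcript had at least 60 fragments over the 3 libraries and open where it had fewer, with vertical jitter only to separate points. Black bars are group medians, dotted lines mark ratios of -1 and 1, and the dashed line is the median of legume-matched transcripts (0.12 on the left, 0.28 on the right). The CIPK median of -0.48 on the left lies apart from the other 8, and the farthest open points are transcripts listed at 0 in 1 library.

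Calcium pumps drive calcium out of the cytosol with ATP, and in Arabidopsis those of the plasma membrane type are held off by an inhibitory domain that calmodulin releases. Their summed FPKM was 320, 552 and 417. CL982.Contig1, annotated as a plasma membrane-type calcium-transporting ATPase 2 and matched to the M. truncatula locus MTR_5g015590, had an FPKM of 58.1, 129 and 69.5 in that order. CL982.Contig3, of the same cluster, had 60.8, 129 and 72.5. The tolerant grazed library was high and the others lay close together. The ratios in tolerant grazed against ungrazed plants were 1.15 (1.07 to 1.24) and 1.09 (1.02 to 1.15), or 2.23-fold and 2.12-fold higher, and in the population comparison they were -0.90 and -0.83, short of the threshold. All 4 transcripts whose nucleotide match was MTR_5g015590 were called higher in the grazing comparison, and no other pump was. They made 14.3% of the pumps, against 15.7% higher among legume-matched transcripts. Rescaling left 2 of them past the threshold (CL982.Contig3 fell to 0.99) and put the 3 CL982 contigs past it in the population comparison, at -1.07 to -1.13.

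Of the other pumps 1, CL3813.Contig2, was called in the grazing comparison. CL3706.Contig1, a match of ATPase 8, a plasma membrane pump in Arabidopsis, stood at 22.1, 22.8 and 28.7 FPKM, and its grazing ratio of 0.04 had an interval that included 0. CL3706.Contig3 of the same cluster had 8.82, 6.59 and 19.1 FPKM and was called higher in intolerant grazed plants, at 1.54 (1.31 to 1.77). CL3813.Contig2, called lower in tolerant grazed and higher in intolerant grazed plants, had only 21, 9 and 30 fragments, with ratios of -1.21 (-2.52 to -0.02) and 1.76 (0.65 to 3.02). In all, 5 pumps were higher (17.9%, against 22.3%) and 1 lower (3.57%, against 13.4%) in the population comparison, and 3 of these 6 had under 20 fragments in both libraries.

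Glutamate receptor channels are cation channels of plant membranes, and in Arabidopsis members of clade 3 such as GLR3.6 carry the long-distance signal from a wounded leaf. They were weakly expressed: the 33 transcripts summed to 101, 104 and 124.6 FPKM, and 18 of them reached 60 fragments over the 3 libraries. The most abundant, CL670.Contig2, a GLR3.6 match, had 12.8, 15.7 and 8.57 FPKM, with ratios of 0.29 and -0.87 that were not called. CL3915.Contig1, a GLR3.4 match, was highest in intolerant grazed plants at 5.62, 6.37 and 11.9 FPKM, with a population ratio of 0.90 (0.71 to 1.09). Neither of these passed the threshold, although rescaling took CL670.Contig2 to -1.11. Of all 15 clade 3 transcripts 2 were higher (13.3%, against 15.7%) and 2 lower in the grazing comparison, and 4 were higher (26.7%, against 22.3%) and 0 lower in the population comparison, among them Unigene345, a GLR3.6 match, at 3.85, 5.48 and 12.2 FPKM and 1.16 (0.87 to 1.44).

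Clade 2 held the strongest ratios of the channels. CL5981.Contig2, a GLR2.9 match, had 8, 78 and 65 fragments (0.487, 4.79 and 4.06 FPKM), 9.82-fold higher in tolerant grazed than ungrazed plants at 3.30 (2.25 to 4.56). The other contig of its cluster, CL5981.Contig1, a GLR3.2 match, had 17, 6 and 7 fragments and a grazing ratio of -1.49, and the sum over the cluster gave 1.16. Unigene25242, a GLR2.7-like transcript, went the other way with 110, 24 and 36 fragments (6.67, 1.47 and 2.23 FPKM), 4.55-fold lower at -2.19 (-2.89 to -1.54). Both grazed libraries lay together and apart from the ungrazed one in CL5981.Contig2 and in Unigene25242. Over the group 4 channels were higher (12.1%, against 15.7%) and 9 lower (27.3%, against 8.78% of legume-matched transcripts) in the grazing comparison, and 7 of the 9 were clade 2. Counts were thin, since 6 of those 13 calls had under 20 fragments in both libraries. The joint rule kept 2 higher (6.06%, against 6.55%) and 3 lower (9.09%, against 3.68%). In the population comparison 9 channels were higher (27.3%, against 22.3%) and 2 lower, again with 6 calls under 20 fragments in both libraries.

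The 2 most abundant calmodulins were nearly level. Unigene40223 and Unigene28789 were both matched to MTR_5g088320 and to a soybean calmodulin. Unigene40223 had 114, 120 and 109 FPKM, and Unigene28789 had 108, 105 and 117. The grazing ratios of 0.08 (0.00 to 0.16) and -0.05 (-0.13 to 0.04) and the population ratios of -0.14 (-0.22 to -0.05) and 0.16 (0.08 to 0.25) were far inside the threshold.

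CML transcripts held the lowest ratios of the sensor group in both comparisons. Unigene21261, a match of soybean CML25-like, had 611, 54 and 571 fragments, or 35.4, 3.15 and 33.9 FPKM. The tolerant grazed library was low and the other two were close. The transcript was 11.2-fold lower in tolerant grazed than ungrazed plants, at -3.49 (-3.92 to -3.09), and 10.7-fold higher in intolerant than tolerant grazed plants, at 3.43 (3.02 to 3.86). It was the lowest grazing ratio among members with at least 60 fragments.

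Other CMLs were low in the intolerant library. CL7817.Contig1, matched to MTR_7g034850, had 102, 116 and 17.9 FPKM and was 6.45-fold lower in intolerant than tolerant grazed plants, at -2.69 (-2.85 to -2.53), with a grazing ratio of 0.19. The second contig of that cluster, CL7817.Contig2, had 37.9, 62.9 and 42.0 FPKM and a smaller population ratio of -0.58, which was not called. The sum over the cluster gave -1.57 in the population comparison. Unigene6289, a CML31-like transcript, had 31.2, 40.9 and 13.5 FPKM, and its population ratio was -1.60 (-1.82 to -1.38). Unigene22816, a short CML38 match, had 41, 23 and 8 fragments and was 2.83-fold lower in intolerant than tolerant grazed plants, with an interval of the log2 ratio from -2.87 to -0.29. Another short CML38 match, Unigene24574, chosen after its values were seen, had 63.7, 30.4 and 13.7 FPKM and was called lower in both comparisons, at -1.07 and -1.15. CL6623.Contig2, annotated as calmodulin and matched to MTR_3g083470, had 8, 12 and 47 fragments and was higher in intolerant than tolerant grazed plants, at 1.99 (1.06 to 3.04). Unigene39078, also annotated as calmodulin, had 2, 2 and 26 fragments and the highest population ratio of the group, 3.72 (1.73 to 6.84).

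The annotation wording also placed 8 kinase transcripts in the sensor group. The 3 contigs of CL3156, annotated as calcium-dependent calmodulin-independent protein kinases, which is a description of CDPKs, were all higher in tolerant grazed plants. CL3156.Contig1, the most abundant, had 40.9, 104 and 43.0 FPKM, with ratios of 1.34 (1.27 to 1.41) and -1.27 (-1.34 to -1.20). Contigs 2 and 3 had grazing ratios of 1.11 and 1.14 and population ratios of -0.90 and -0.19. Transcripts named Ca2+ and calmodulin-dependent protein kinase from M. sativa, the family of the symbiosis kinase DMI3 of M. truncatula, were 3 in number and rare, at 8.47, 9.33 and 6.01 FPKM in sum. In the population comparison 2 of these 3 were called lower and 0 higher, with a median log2 ratio of -1.09. Of the 2 calls 1 had under 20 fragments in both libraries, and the joint rule kept 0. Without the 8 kinases the sensor group had 2 higher (7.41%, against 15.7%) and 3 lower (11.1%, against 8.78%) of 27 in the grazing comparison. In the population comparison it had 3 higher (11.1%, against 22.3%) and 6 lower (22.2%, against 13.4%).

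**Figure D3:**
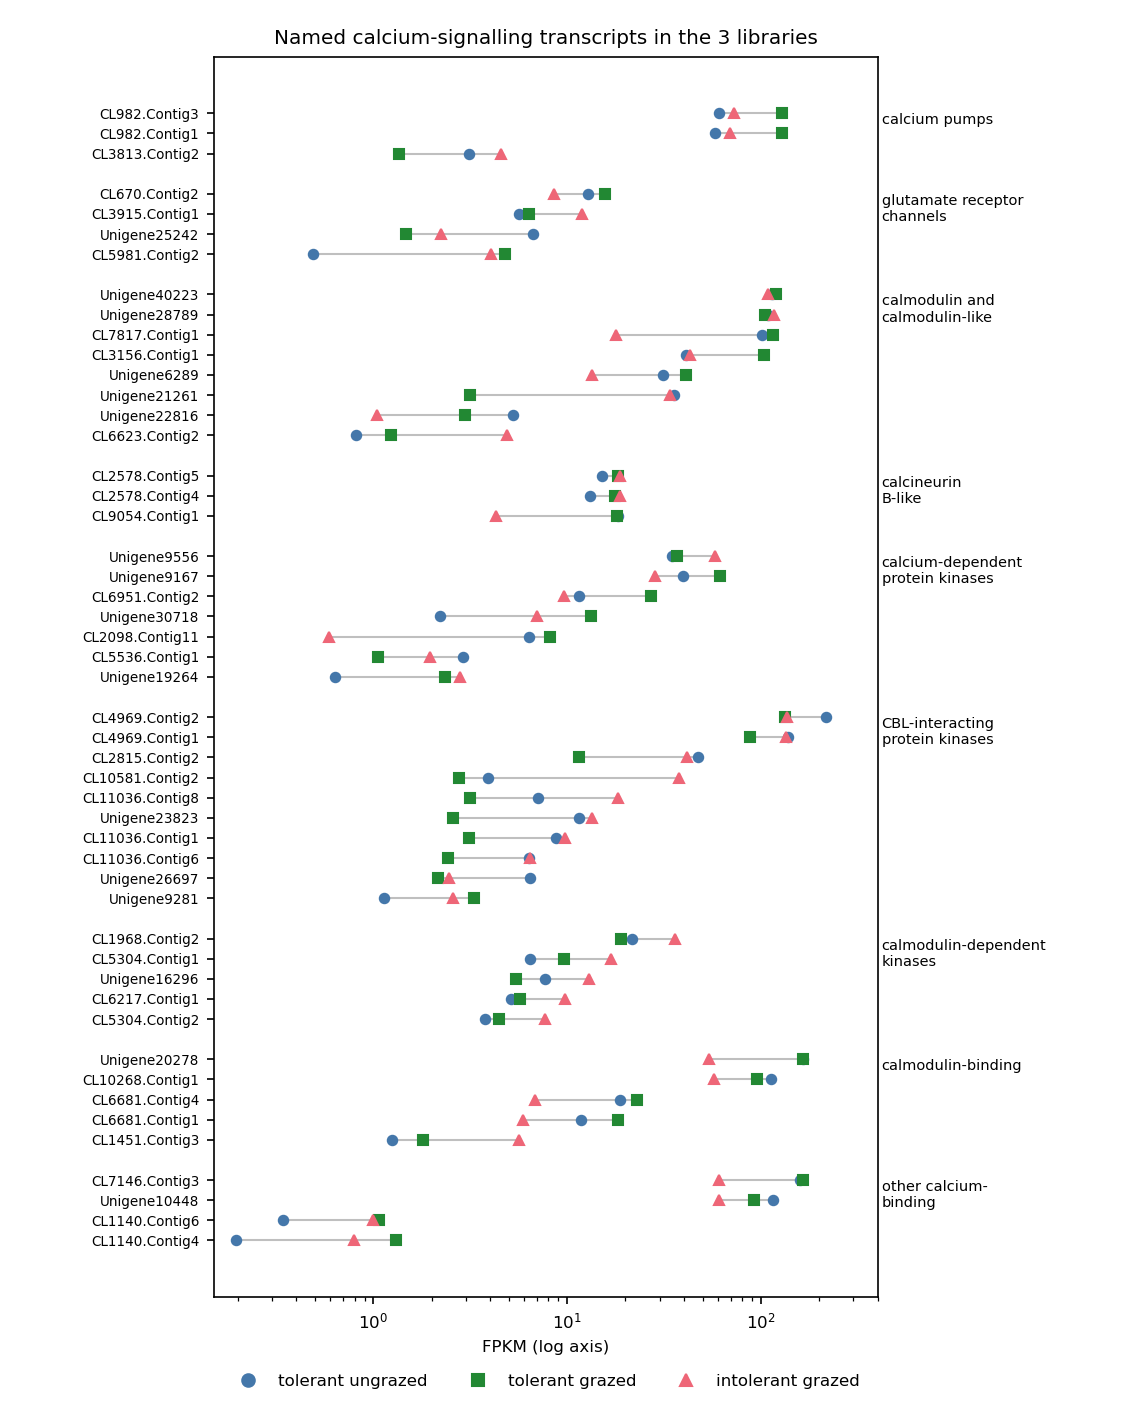
The horizontal axis (log scale) is FPKM, and each row is 1 named transcript, by role group, with a circle for tolerant ungrazed, a square for tolerant grazed and a triangle for intolerant grazed plants. The square lies apart to the left in Unigene21261 (3.15 against 35.4 and 33.9 FPKM) and CL2815.Contig2 (11.6 against 47.2 and 41.7), and the triangle lies apart to the left in CL7817.Contig1 (17.9 against 102 and 116).

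CBL proteins, which bind calcium and hold CIPKs at a membrane, had 1 transcript higher (5%, against 15.7%) and 0 lower (against 8.78%) of 20 in the grazing comparison. Of those of at least 500 bases the most abundant were contigs of CL2578, matched to MTR_5g096420. CL2578.Contig4 had 13.1, 17.8 and 18.7 FPKM and CL2578.Contig5 had 15.2, 18.3 and 18.8. Their grazing ratios of 0.44 (0.23 to 0.65) and 0.27 (0.06 to 0.47) and their population ratios of 0.07 and 0.04 stayed inside the threshold, as did those of all 5 contigs of the cluster. The 1 transcript called higher there, CL3905.Contig1, had 3, 17 and 38 fragments and a grazing ratio of 2.51 (0.72 to 4.93), and it was called higher in the population comparison too, at 1.18. In that comparison 4 of the 20 were higher (20%, against 22.3% of legume-matched transcripts) and 1 lower, and the joint rule kept 2 of the higher ones (10%, against 13.3%). The group also caught 2 calcineurin-like phosphoesterases, which are metal-dependent phosphatases and not calcium sensors, and 1 of them carried its only lower call in the population comparison. That transcript, CL9054.Contig1, had 167, 164 and 38 fragments and a ratio of -2.09 (-2.64 to -1.57).

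CIPKs, the kinases that CBLs recruit, held the largest share of lower transcripts among the kinases in tolerant grazed plants. The summed FPKM of the group was 855, 647 and 804, lowest in the tolerant grazed library. In the grazing comparison 10 of 40 were lower (25%, against 8.78% of legume-matched transcripts) and 2 higher (5%, against 15.7%). The joint rule kept 8 lower (20%, against 3.68% in the background) and 1 higher. In the population comparison 11 were higher and 1 lower (27.5% higher, against 22.3%), and the joint rule kept 10 (25%, against 13.3%) and 0 (against 7.99%). The lower one, Unigene48608, had 14, 10 and 0 fragments and was at least 3.28-fold lower against a floor of 3 fragments per library. After rescaling the grazing counts were 12 lower and 1 higher, and the population counts 8 higher and 6 lower of 40, beside 17.1 and 17.0% in the background. With 1 added to each FPKM the lower calls in the grazing comparison came to 6.

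The CIPK transcripts in question were of several kinds. CL2815.Contig2, matched to MTR_1g013700, had 1851, 451 and 1598 fragments, or 47.2, 11.6 and 41.7 FPKM. It was 4.07-fold lower in tolerant grazed than ungrazed plants at -2.03 (-2.18 to -1.88), and 3.60-fold higher in intolerant than tolerant grazed plants at 1.85 (1.70 to 2.00). Unigene23823, a CIPK7-like transcript, had 11.5, 2.59 and 13.4 FPKM, with ratios of -2.15 (-2.49 to -1.83) and 2.37 (2.05 to 2.71). In both the tolerant grazed library was alone at the low end.

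The 7 contigs of cluster CL11036, all matched to MTR_4g131060, had the tolerant grazed library lowest as well. CL11036.Contig1 had 8.77, 3.13 and 9.73 FPKM, CL11036.Contig6 had 6.32, 2.44 and 6.41, and CL11036.Contig8 had 7.09, 3.14 and 18.3. The grazing ratios of these 3 were -1.49 (-1.79 to -1.19), -1.38 (-1.69 to -1.07) and -1.18 (-1.48 to -0.88), and those of all 7 contigs ran from -0.45 to -1.49. Over the cluster the summed FPKM was 47.6, 23.2 and 65.0, and the log2 ratio of the sums was -1.04 in the grazing and 1.48 in the population comparison. These contigs made 4 of the 10 lower and 5 of the 11 higher CIPK calls, so the group's count leaned on 1 locus, and 1 added to each FPKM took 2 of the 4, Contig4 and Contig8, to -0.97.

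CL10581.Contig2, matched to MTR_2g049790, had the largest population ratio among members with at least 60 fragments. Its fragments numbered 117, 83 and 1109, its FPKM was 3.89, 2.78 and 37.7, and it was 13.6-fold higher in intolerant than tolerant grazed plants at 3.76 (3.44 to 4.10). The other contig of the cluster, CL10581.Contig1, stood at 66.1, 42.7 and 44.6 FPKM with a population ratio of 0.06. Of the 2 assembled forms, 1 passed the threshold between the populations. Over the cluster the summed FPKM was 69.95, 45.5 and 82.3, and the log2 ratio of the sums in the population comparison was 0.86, short of the threshold.

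The most abundant CIPKs differed less. CL4969.Contig2, a CIPK25-like transcript, had 216, 133 and 137 FPKM, and CL4969.Contig1 had 138, 87.6 and 135. The grazing ratios were -0.70 (-0.74 to -0.65) and -0.65 (-0.71 to -0.60), under the threshold but with narrow intervals. Unigene26697 was lower in tolerant grazed plants at 94, 31 and 35 fragments and -1.59 (-2.22 to -0.99). Against this run, Unigene9281, a CIPK2-like transcript, was higher there at 21, 61 and 47 fragments and 1.55 (0.81 to 2.34), and 3 contigs of CL10564, CIPK9-like, had 96.2 FPKM in sum in tolerant grazed plants, above 73.8 in ungrazed and 59.9 in intolerant grazed plants, without a call.

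CDPKs summed to 707, 805 and 692 FPKM, without the 3 contigs of CL3156 that the wording placed in the sensor group. Those 3 summed to 89.4, 209 and 119 FPKM, and all 3 were higher in the grazing comparison and 1 lower in the population comparison. Of the 65 transcripts of the CDPK group 55 had at least 500 bases. Among legume-matched transcripts of that length 9.56% were higher and 5.15% lower in the grazing comparison, and 15.5 and 9.66% in the population comparison. In the grazing comparison 6 of the 65 were higher (9.23%, against 15.7% of legume-matched transcripts) and 3 lower (4.62%, against 8.78%). In the population comparison 4 were higher (6.15%, against 22.3%) and 11 lower (16.9%, against 13.4%). After rescaling 0 were higher and 16 lower (24.6%, against 17.0%). Of the 11 lower calls 8 were contigs of 2 clusters, 4 of CL6951 and 4 of CL2098. The share before rescaling was near the background of all lengths.

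Named CDPKs followed several patterns. Unigene9167, a CDPK32-like transcript and one of the most abundant of the CDPK group, had 39.4, 61.8 and 28.3 FPKM, and its population ratio was -1.13 (-1.22 to -1.03), 2.18-fold lower. Unigene9556, matched to MTR_5g099240, had 34.9, 36.9 and 58.0 FPKM and ratios of 0.08 and 0.65 that were not called. In cluster CL6951 all 6 contigs were highest in tolerant grazed plants, with a summed FPKM of 77.7, 129 and 57.4. CL6951.Contig2 had 11.5, 27.1 and 9.61 FPKM, with ratios of 1.23 (0.99 to 1.47) and -1.49 (-1.76 to -1.24). Over the cluster the log2 ratio of the sums was 0.74 in the grazing comparison, short of the threshold, and -1.17 in the population comparison.

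Less abundant CDPKs gave the largest ratios. Transcripts matched to soybean seed CDPK b were higher in tolerant grazed plants: Unigene30718 had 13, 78 and 40 fragments and a ratio of 2.60 (1.74 to 3.57), and Unigene19264 had 9, 33 and 39 and a ratio of 1.89 (0.79 to 3.13). CL5536.Contig1, matched to MTR_1g026190, was lower at 33, 12 and 22 fragments and -1.45 (-2.54 to -0.46). CL2098.Contig11, a contig of 228 bases matched to MTR_3g098090, had 33, 42 and 3 fragments, and against the 3 fragments of the intolerant library its ratio was -3.78 (-6.12 to -2.14). The other 2 transcripts matched to that locus were called lower too, at 16, 18 and 1 fragments and at 17, 16 and 5, as was CL2098.Contig4, matched to MTR_3g098070, at -1.02, while contigs 6 to 9 of the cluster, matched to MTR_3g098070 or MTR_8g095440, had ratios from -0.13 to 0.29.

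**Figure D4:**
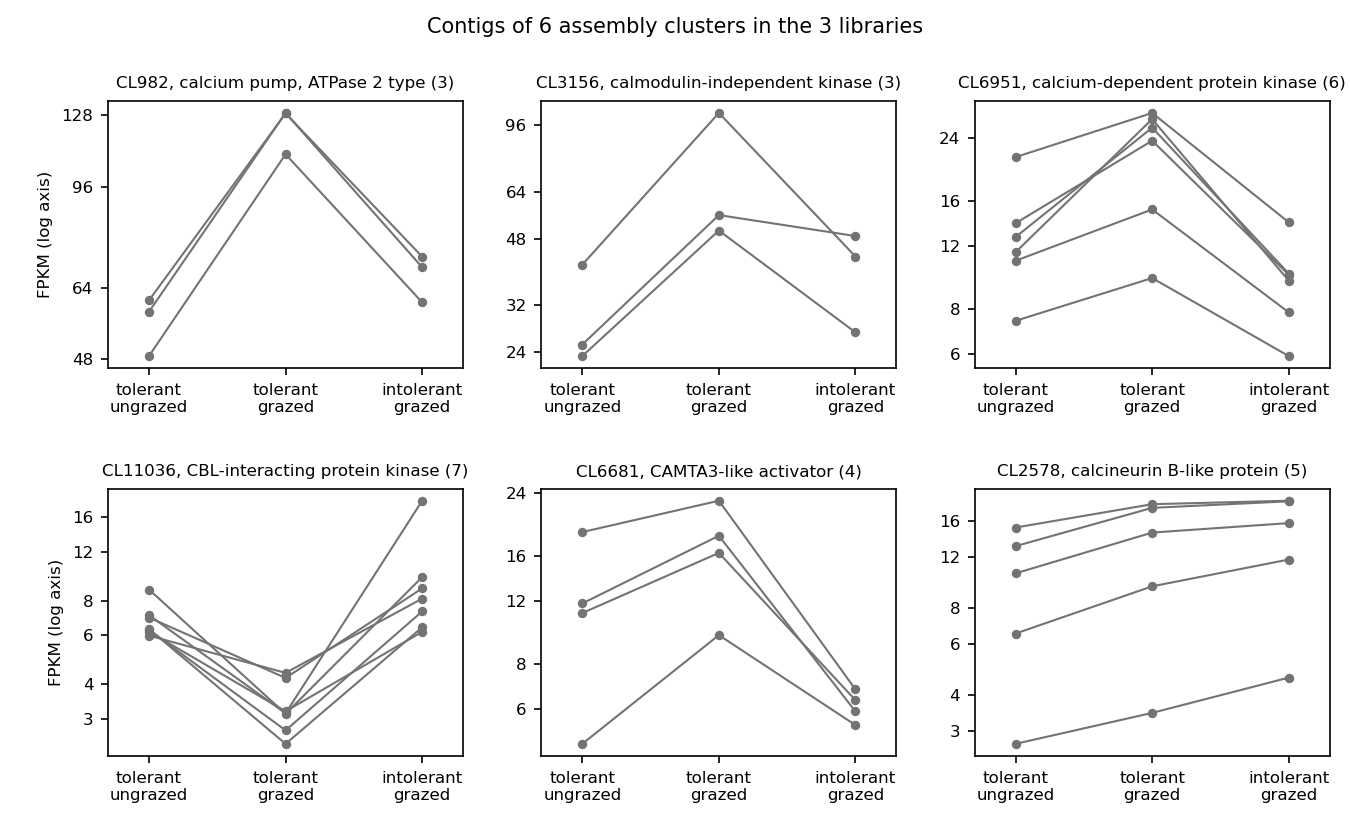
Each line joins the FPKM (log axis) of 1 contig in the 3 libraries, with 1 panel for each of 6 clusters and the number of contigs in brackets. Contigs of the pump cluster CL982 and the kinase clusters CL3156 and CL6951 peak in tolerant grazed plants, the 7 contigs of CL11036 are lowest there, those of CL6681 are lowest in intolerant grazed plants except Contig2 (4.79, 9.62 and 5.40), and those of CL2578 change little. Contigs of a cluster share sequence and are not replicates.

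The 5 transcripts of the calmodulin-dependent kinase group were all highest in the intolerant library. The 3 Ca2+ and calmodulin-dependent kinase transcripts that the wording placed in the sensor group did not share this, 2 of them being called lower there. CL1968.Contig2, annotated as a calcium/calmodulin-dependent protein kinase kinase and matched to MTR_2g094090, had 21.6, 18.9 and 36.0 FPKM. The 4 transcripts annotated as CaMK3 were CL5304.Contig1 at 6.41, 9.69 and 16.9 FPKM, CL5304.Contig2 at 3.77, 4.47 and 7.72, CL6217.Contig1 at 5.11, 5.75 and 9.73 and Unigene16296 at 7.73, 5.46 and 13.0. No tolerant library reached the intolerant level in any of them. Population ratios were 0.93, 0.80, 0.79, 0.76 and 1.25 in the order given, all with intervals above 0, as in 20690 of 52588 legume-matched transcripts. Unigene16296 (0.81 to 1.71) alone was called, 20% of the group against 22.3% of legume-matched transcripts. The median of the group, 0.80, was 0.56 after rescaling. Both CL5304 contigs were matched to MTR_4g086660, and CL6217.Contig1 and Unigene16296 to MTR_8g079790. In the grazing comparison the ratios lay between -0.50 and 0.60 and none was called.

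Calmodulin-binding proteins are the targets that calmodulin switches, and the 60 of them summed to 798, 843 and 607 FPKM. In the grazing comparison 8 were higher (13.3%, against 15.7%) and 4 lower (6.67%, against 8.78%). In the population comparison 15 were higher (25%, against 22.3%) and 9 lower (15.0%, against 13.4%). Of these the joint rule kept 5 higher (8.33%, against 13.3%) and 9 lower (15.0%, against 7.99%). The 2 most abundant transcripts were low in the intolerant library. Unigene20278, matched to MTR_2g039910, had 164, 165 and 54.1 FPKM, a grazing ratio of 0.00 and a population ratio of -1.61 (-1.69 to -1.53), 3.05-fold lower. CL10268.Contig1, matched to the same locus, had 113, 95.7 and 57.3 FPKM and a population ratio of -0.74 (-0.81 to -0.68), not called.

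Calmodulin-binding transcription activators (CAMTA) bind DNA and calmodulin, and CAMTA3 of Arabidopsis represses salicylic acid immunity and promotes cold responses. Among 17 CAMTA transcripts 4 were lower (23.5%, against 13.4%) and 2 higher (11.8%, against 22.3%) in intolerant grazed plants. CL6681.Contig4, CAMTA3-like and of 3772 bases, had 18.7, 22.8 and 6.79 FPKM and was 3.36-fold lower at -1.75 (-1.89 to -1.61). CL6681.Contig1 had 11.8, 18.2 and 5.89 FPKM and a ratio of -1.63 (-1.87 to -1.39), and the sum over the cluster gave -1.46. The cluster accounted for 3 of the 4 lower calls. The median over the 17 was 0.47, and both higher calls were contigs of CL4989, of which CL4989.Contig4, CAMTA4-like, had 5.43, 4.22 and 12.0 FPKM.

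Of 5 transcripts named pathogen-induced calmodulin-binding protein 2 were lower (40%, against 13.4%) and 0 higher in intolerant grazed plants. These 2 were CL719.Contig1 at -1.30 with 26.5, 37.8 and 15.3 FPKM and CL9202.Contig2 at -1.25. Kinesin-like calmodulin-binding proteins, motors that in Arabidopsis leave microtubules when calmodulin binds, went the other way: 10 of 16 were higher (62.5%, against 22.3%) and 0 lower in intolerant grazed plants, their summed FPKM being 26.3, 39.7 and 64.2. Fragments were few, since 5 of those calls had under 20 fragments in both libraries and the joint rule kept 3 (18.75%, against 13.3%). The 5 contigs of cluster CL7324 made 5 of the 10 calls, 4 of them among those with few fragments. CL1451.Contig3, matched to MTR_8g072430, had 14, 20 and 62 fragments and a ratio of 1.66 (0.91 to 2.46). CL7324.Contig2 of the same locus was at 0 in tolerant grazed plants and had 18 fragments in intolerant ones, at least 6.10-fold higher against a floor of 3 fragments per library.

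Of the other calcium-binding proteins of at least 500 bases, the most abundant was CL7146.Contig3, a respiratory burst oxidase, an enzyme whose EF-hands let calcium turn on superoxide production at the plasma membrane. It had 159, 165 and 60.9 FPKM over 12184, 12576 and 4560 fragments, a grazing ratio of 0.06 (0.02 to 0.09) and a population ratio of -1.44 (-1.49 to -1.39), 2.71-fold lower. Unigene10448, an EF-hand protein like the olive pollen allergen Ole e 8, had 116, 92.4 and 60.7 FPKM and was not called. Mitochondrial carriers with calcium-binding domains numbered 17, 2 higher (11.8%, against 15.7%) and 1 lower (5.88%, against 8.78%) in tolerant grazed plants. CL1140.Contig4, matched to MTR_5g009500, had 6, 40 and 24 fragments and was 6.72-fold higher in tolerant grazed plants, at 2.75, and CL1140.Contig6 had 11, 34 and 31 with 1.64 (0.62 to 2.77). Levels were low, and with 1 added to each FPKM neither was called (0.95 and 0.62). The 3 external NADH dehydrogenases of mitochondria, caught by the words calcium-binding in their annotation, had grazing ratios of 0.42 to 0.88 and population ratios of -0.79 to -0.88.

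Calcium genes that the rule did not take in were counted in the same way. Of 127 legume-matched transcripts in 8 lists, 126 had fragments in the grazing comparison, and 11 (8.73%) of these were higher and 10 (7.94%) lower in tolerant grazed plants. Of the 127, 24 (18.9%) were higher and 14 (11.0%) lower in intolerant grazed plants. Each share was under that of legume-matched transcripts of all lengths. However, 92 of the 127 had at least 500 bases. Among legume-matched transcripts of that length 9.56 and 5.15% were higher and lower in the grazing comparison, and 15.5 and 9.66% in the population comparison. Beside those, only the 8.73% lay under. Among 24 cyclic nucleotide-gated channels 2 were higher (8.33%, against 15.7%) and 1 lower (4.17%, against 8.78%) in the grazing comparison. In the population comparison 5 were higher (20.8%, against 22.3%) and 6 lower (25%, against 13.4%). None of 7 hyperosmolality-gated channel candidates was called in either comparison. Of 9 transcripts, 8 of cation/proton exchangers and 1 of a CAX-interacting protein, 0 were higher and 1 lower (11.1%, against 8.78%) in the grazing comparison. In the population comparison 3 of these 9 were higher (33.3%, against 22.3%) and 0 lower. Of 19 further respiratory burst oxidase transcripts 1 was higher and 6 lower (31.6%, against 8.78%) in tolerant grazed plants, and 7 were higher (36.8%, against 22.3%) and 0 lower in intolerant grazed plants. The higher calls in intolerant grazed plants leaned on 1 locus. CL11397.Contig1, Unigene1787, Unigene17984, Unigene19105 and Unigene24026, of 379 to 506 bases, were all matched to MTR_3g098380. Among the 19 were the other 3 contigs of the cluster of the abundant oxidase above, which ran opposite to it in the population comparison. All 3 were among the lower calls in the grazing comparison. Their matches differed from that of CL7146.Contig3, which was MTR_7g113130: CL7146.Contig1 and CL7146.Contig2 were matched to MTR_1g083290, and CL7146.Contig4 to no named locus. CL7146.Contig2 had 75.2, 17.8 and 29.4 FPKM, a grazing ratio of -2.08 (-2.17 to -1.98) and a population ratio of 0.72 (0.62 to 0.83). The population ratios of CL7146.Contig1 and CL7146.Contig4 were 0.71 and 2.76, the last from 6 and 40 fragments. The 9 calreticulin and calnexin transcripts, calcium-binding chaperones of the endoplasmic reticulum, had 0 calls in the grazing comparison. Annexins bind membranes when calcium is present, and 2 of 11 (18.2%, against 15.7%) were higher there. Unigene20991, an annexin D4 match, had 2.90, 9.99 and 8.88 FPKM at 1.78 (1.41 to 2.17), and Unigene21379, an annexin D3 match, had 2.88, 9.45 and 9.51 at 1.71 (1.30 to 2.14). Of 22 phospholipase C transcripts 5 were higher (22.7%, against 15.7%) and 0 lower in tolerant grazed plants, with 0 kept by the joint rule. In intolerant grazed plants 3 were higher and 7 lower (31.8%, against 13.4%), with 1 (4.55%, against 13.3%) and 3 (13.6%, against 7.99%) kept. Of 26 synaptotagmins 25 had fragments in the grazing comparison, and 1 of these was higher (4%, against 15.7%) and 2 lower (8%, against 8.78%). In the population comparison 4 were higher (15.4%, against 22.3%) and 1 lower (3.85%, against 13.4%).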

How the data were processed

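Whole-plant RNA of the 3 alfalfa libraries was sequenced and assembled de novo by the authors with Trinity and TGICL, and transcripts were annotated by blastx at an E-value below 1e-05 against protein databases. The count of uniquely aligned fragments per transcript was made by the authors with SOAP. FPKM was computed from those counts by the authors, and recomputing it from the deposited counts and lengths gave the same values to 5.0e-05. Versions of these programs are not given in the sources used here. The grazed libraries came from a grazed and the ungrazed library from a fenced block.

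Members were chosen by annotation, and role groups by its first matching words. Members and lists were chosen with earlier results of these data known. Named transcripts were the 2 most abundant of at least 500 bases in each role group, the 8 highest and 8 lowest log2 ratios of each comparison among members with at least 60 fragments over the 3 libraries, and every calmodulin-dependent kinase with at least 60 fragments. That gave 49, and other named transcripts (CL3706, CL719, CL7324, CL9202 and CL4989 contigs, CL2098.Contig4, Unigene48608, Unigene24574, Unigene345, Unigene39078, CL3905.Contig1, second contigs of clusters and non-members) and the subgroups of roles were chosen after their values were seen. Calls used a log2 FPKM ratio of at least 1 in size, with 0.01 in place of 0. With 1 library per condition no test of a condition was possible. Clopper-Pearson intervals (95%) were computed on fragments. Alternatives were 0.1 or 1 added to each FPKM, rescaling by the median ratio, a minimum of 30 fragments, the fold with a Poisson test (false discovery rate 0.001), FPKM summed over a cluster, and, added later, members of at least 500 bases and members without phosphoesterases, NADH dehydrogenases and the oxidase. Computations used Python 3.11.15, numpy 2.4.6, pandas 2.3.3, scipy 1.17.1 and matplotlib 3.10.9, tested on simulated data.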

Additional observations from a re-analysis of the deposited data

How the results depend on the processing

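With 1 library per condition no replicate could be left out, and no paired analysis was possible because no condition had a second library. Counts of members past the threshold depended on the setting. With 1 added to every FPKM, 13 were higher and 14 lower in tolerant grazed against ungrazed plants and 32 were higher and 26 lower in intolerant against tolerant grazed plants. With the Poisson test added these became 18, 14, 32 and 27. With FPKM summed over clusters they were 17, 19 and 34, and 23 clusters or single transcripts were lower in intolerant plants, of 216 in all. Among members of at least 500 bases they were 18, 14, 24 and 27. After rescaling by the median ratio 64 members, in place of 39, were lower in intolerant plants. With 0.1 added, at least 30 fragments, the annotations of other proteins left out, and for the other 3 counts rescaling, they moved by less than 1.5 times. Of 294 recomputed ratios of the 49 named transcripts 43 moved beyond their counting interval and 0 changed sign as a called value. The depth limits single transcripts: 21 calls in the grazing and 28 in the population comparison had under 20 fragments in both libraries, and differences between plants or blocks cannot be separated from those between conditions.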
